A study of Mus musculus with 12 samples.

Results

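The 10 genes described here are immediate early and heat shock genes, chosen by name from the 55291 genes of the deposited table because their transcripts are known to be sensitive to how a tissue is dissected. They are Fos, Fosb, Jun, Junb, Egr1, Ier2, Dusp1, Atf3, Hspa1a and Hspa1b, and all 10 were found. Their levels were read in 12 untreated, wild-type C57BL/6J mouse embryos of embryonic day 7.0, during gastrulation. There were 5 female embryos (litters 3, 4, 6, 8 and 9) and 7 male embryos (litters 2, 3, 5, 6 and 9), and litters 3, 6 and 9 held both sexes. All embryos shared strain, genotype and stage, and none was exposed to alcohol, the agent the series is about. The labels name the tissue as the embryo and do not say which extraembryonic or maternal layers were removed, nor how long dissection took.

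Immediate early genes are transcribed within minutes of a stimulus, without new protein synthesis, when kinases such as ERK, JNK and p38 activate factors already bound at their promoters. Fos and Jun family proteins pair to form the transcription factor AP-1, Egr1 and Atf3 encode further transcription factors, and Dusp1 encodes a phosphatase that switches the kinases off again. Hspa1a and Hspa1b encode the inducible cytosolic chaperone Hsp70, which heat shock factor 1 drives when proteins misfold. In the gastrula, ERK is also active in development, downstream of fibroblast growth factors, so such genes need not be silent in an undisturbed embryo.

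Depth, taking the commonest low value as 1 fragment, was 83291000 to 114374000 fragments a library. Values are normalized counts, that is, fragment counts divided by a size factor per embryo, recovered from the variance-stabilized values that the authors deposited. All 7 epiblast markers and all 8 markers of the primitive streak and nascent mesoderm were detected. The libraries also held transcripts of other tissues. The 6 markers of trophoblast giant cells summed to 1781 to 21409 normalized counts in females and 7878 to 68044 in males, with Prl3b1 and Ctsq at 0 in all embryos, and the 8 maternal decidual markers to 6349 to 42092 in females and 16193 to 70006 in males. The 5 adult blood markers summed to 414 to 7620 in females and 1125 to 7186 in males, with none at 0. In bulk libraries, fewer cells of a type and less RNA per cell cannot be told apart.

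Per kilobase of annotated exon, Ier2 stood far above the other genes and Fosb far below. Ier2, a small nuclear protein induced by growth factors, averaged 6790 ± 584 normalized counts per kilobase (SD, n = 12), higher than 94.2% of the genes tested. Next came Dusp1 at 894 ± 143, Jun at 823 ± 126 and Junb at 794 ± 176 (SD, n = 12 each), at percentiles of 72.0, 70.7 and 70.2 of the genes tested. Then followed Hspa1b at 232 ± 63.7, Fos at 148 ± 124, Egr1 at 71.6 ± 23.4, and Hspa1a at 40.9 ± 17.2 normalized counts per kilobase (SD, n = 12 each). Atf3 stood between Egr1 and Hspa1a at a mean of 57.6, with embryos between 14.9 and 104. Fosb averaged 2.61 ± 3.78 (SD, n = 12). Neighbours in this order were compared within embryos by an exact sign-flip permutation test, two-sided and adjusted over the 9 neighbouring pairs. Ier2 was above Dusp1, Junb above Hspa1b and Hspa1a above Fosb in all 12 embryos (adjusted p = 0.00146 each), and Fos was above Egr1 in 10 of 12 (adjusted p = 0.0439). Hspa1b was above Fos in 11 of 12 embryos, which missed the threshold (adjusted p = 0.0677). The other neighbours did not differ beyond the spread between embryos: Dusp1 and Jun (adjusted p = 0.279), Jun and Junb (0.621), Egr1 and Atf3 (0.279), and Atf3 and Hspa1a (0.123).

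**Figure D1:**
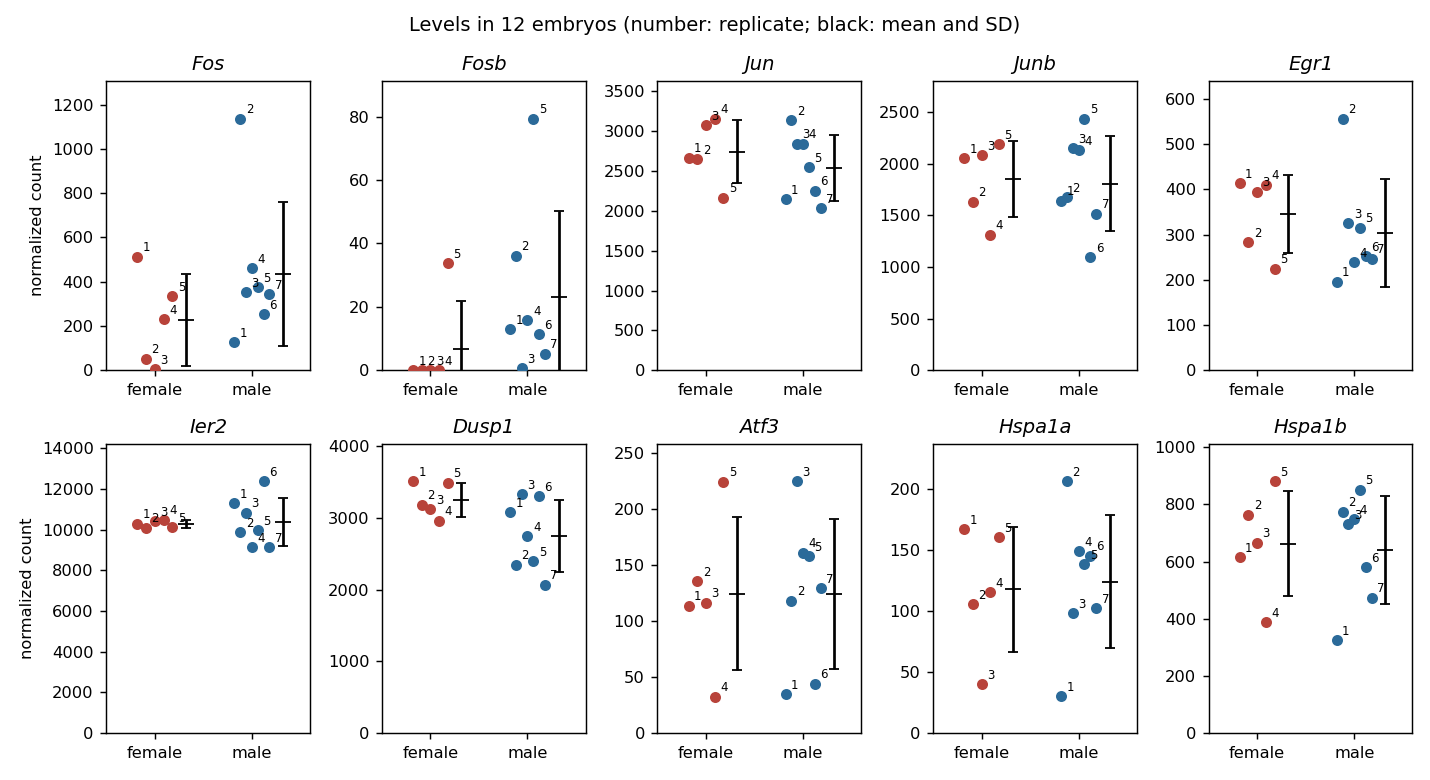
Normalized count (vertical axis, starting at 0) of each gene in 5 female and 7 male embryos; each point is an embryo with its replicate number, and the black bar is the mean with its SD, drawn down to 0. Ier2 lies between 9134 and 12372 in all embryos, while Fos runs between 4.14 and 1136, and the sexes overlap for every gene.

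Fos, the AP-1 partner that defines the immediate early response, varied most among the 9 genes detected in every embryo. The 5 females were at 514, 51.2, 4.14, 232 and 336 normalized counts (replicates 1 to 5), and the 7 males had a lowest value of 125, a median of 353 and a highest of 1136 (replicate 2). The 4.14 of female replicate 3 rested on about 3.98 fragments, so its level is known only roughly, and the ratio of 274 between the highest and the lowest embryo with it. Females 2 and 3 lay below all males, male 2 lay above all other embryos, and the sexes overlapped. On the log2 scale the SD over the 12 embryos was 2.01, larger than that of 90.3% of the genes tested, against a median of 0.318 for all genes. Its residual SD within sexes was 1.87, which is 3.46 times the value that the mean-variance trend of the fit gives for a gene of its level (0.539).

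The bases just before the Fos start site are shown because Fos was the most variable of the genes detected in every embryo. Fos lies on chromosome 12 from 85473890 to 85477273 of GRCm38, on the plus strand. The 250 bases that precede it, chr12:85473640-85473889, are given from RefSeq (GRCm38.p6). Capitals mark the core TGACG of the cAMP response element, found at 129 and 66 bases before the start, and the TATA box TATAAA at 33 bases before it.
Fos: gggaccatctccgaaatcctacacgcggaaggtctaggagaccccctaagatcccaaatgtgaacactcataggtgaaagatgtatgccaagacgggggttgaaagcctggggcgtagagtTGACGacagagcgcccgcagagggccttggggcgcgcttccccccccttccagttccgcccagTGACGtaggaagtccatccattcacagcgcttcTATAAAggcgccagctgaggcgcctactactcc
Both strands of the 250 bases before the start were searched, in these genes and in all promoters alike. Of the 10 genes, 8 were searched (all but Egr1 and Ier2). Of these 8, 5 held TGACG (Fos, Fosb, Junb, Dusp1 and Atf3), as did 17.8% of all 32851 promoters. TATAAA was in 1 of the 8, against 12.4% of all promoters. The CArG box, to which serum response factor binds, and the AP-1 site TGANTCA were in none of the 8 windows, against 1.47% and 6.75% of all promoters. Sites outside these 250 bases, and any site of Egr1 or Ier2, were not searched. Absence from a window therefore does not mean that the gene lacks the site. The EGR site GCGNGGGCG was in Fosb alone of the 8, against 4.7% of all promoters.

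Fosb (chromosome 7, 19302696 to 19310051, minus strand), a Fos paralogue, was near the limit of detection. It was at 0 in female replicates 1 to 4 and at 33.8 normalized counts in replicate 5, and males had a lowest value of 0.719, a median of 13.0 and a highest of 79.4 (replicate 5). A value of 0 allows up to 3 fragments, which is 2.94 to 3.24 normalized counts in those 4 libraries. Male 3, at less than 1 estimated fragment, was at that limit too. The 1 female with reads lay within the male range. At this depth a level below the limit of 3 fragments cannot be told from 0.

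Jun (chromosome 4, 95049034 to 95052222, minus strand) and Junb (chromosome 8, 84974484 to 84978718, minus strand), the AP-1 partners that bind DNA as dimers with Fos proteins, were abundant. Jun was at 2667, 2651, 3076, 3155 and 2164 in females, and males had a lowest value of 2031, a median of 2544 and a highest of 3134. Junb was at 2052, 1631, 2083, 1311 and 2192 in females, and males had a lowest value of 1094 (replicate 6), a median of 1678 and a highest of 2436 (replicate 5). Between the lowest and the highest embryo Jun differed 1.55-fold and Junb 2.23-fold, with overlapping sexes. Their SDs on the log2 scale, 0.226 for Jun and 0.345 for Junb, lay at the 36.2th and 52.7th percentiles of the genes tested. Junb shares 173 exon bases (7.52% of its exons) with Prdx2 on the opposite strand, which averaged 74945 normalized counts, and Jun shares 232 (7.28%) with Junos at 19.1. No source says whether counting used strand, and reads from the shared bases may belong to either gene.

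Egr1 (chromosome 18, 34859823 to 34864984, plus strand), a zinc finger factor that responds to growth factors and to mechanical stimuli, was low but present in all embryos. Females were at 414, 283, 394, 410 and 225 normalized counts, and males had a lowest value of 196, a median of 252 and a highest of 556. The highest male was replicate 2, the same embryo that was highest for Fos and Hspa1a. Atf3 (chromosome 1, 191170296 to 191218039, minus strand), a stress-induced repressor of the ATF/CREB family, was at 113, 135, 116, 32.1 and 224 in females, and males had a lowest value of 34.4 (replicate 1), a median of 129 and a highest of 224 (replicate 3). Female 4 and males 1 and 6, at 43.9 or less, stood below the other embryos, all at 113 or more. Egr1 differed 2.84-fold and Atf3 6.99-fold between the lowest and the highest embryo.

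Ier2 (chromosome 8, 84661331 to 84662852, minus strand) varied least of the 10 genes. It was at 10303, 10093, 10409, 10497 and 10114 in females, and males had a lowest value of 9134, a median of 9960 and a highest of 12372 (replicate 6). The highest embryo was 1.35-fold above the lowest, and the SD of 0.121 on the log2 scale lay at the 13.3th percentile of the genes tested. Its residual SD within sexes was 0.127, which is 1.04 times the value that the trend gives for its level (0.122). For a gene of that level Ier2 was thus not unusually steady. The females lay closer together (SD 178, n = 5) than the males (SD 1192, n = 7), a difference that was not tested.

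Dusp1 (chromosome 17, 26505590 to 26562128, minus strand) had an SD of 0.247 on the log2 scale, at the 40.1th percentile. It was at 3509, 3182, 3120, 2961 and 3491 in females, and males had a lowest value of 2066, a median of 2748 and a highest of 3335. Males 2, 4, 5 and 7 lay below all females, and males 1, 3 and 6 lay among them. Dusp1 alone of the 8 searched genes held the full cAMP response element TGACGTCA, which 1.55% of all promoters hold, and its window is shown for that reason. It is chr17:26508473-26508722 on the minus strand (RefSeq, GRCm38.p6), where the RefSeq start lies inside the longer gene span of the annotation, with the element in capitals at 143 bases before the start.
Dusp1: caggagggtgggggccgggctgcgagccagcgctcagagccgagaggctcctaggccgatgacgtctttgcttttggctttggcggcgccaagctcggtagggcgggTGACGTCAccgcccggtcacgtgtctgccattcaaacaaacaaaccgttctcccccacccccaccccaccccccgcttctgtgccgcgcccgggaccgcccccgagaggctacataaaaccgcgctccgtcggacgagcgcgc

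Hspa1a and Hspa1b lie side by side on chromosome 17, Hspa1b from 34956436 to 34959238 and Hspa1a from 34969190 to 34972156, both on the minus strand. The 250 bases before each start are shown because they are nearly the same, with 98.8% identity, although the measured levels differ. Capitals mark the heat shock element core GAANNTTC, at 104 bases before the start in both. This core was in 3 of the 8 searched genes (also in Jun) and in 6.69% of all promoters. The windows are chr17:34972157-34972406 for Hspa1a and chr17:34959239-34959488 for Hspa1b (RefSeq, GRCm38.p6).
Hspa1a: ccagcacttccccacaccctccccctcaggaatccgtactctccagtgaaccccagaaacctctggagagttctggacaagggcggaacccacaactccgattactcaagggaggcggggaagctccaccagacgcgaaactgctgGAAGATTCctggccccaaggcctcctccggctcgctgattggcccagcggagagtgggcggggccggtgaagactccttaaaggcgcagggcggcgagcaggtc
Hspa1b: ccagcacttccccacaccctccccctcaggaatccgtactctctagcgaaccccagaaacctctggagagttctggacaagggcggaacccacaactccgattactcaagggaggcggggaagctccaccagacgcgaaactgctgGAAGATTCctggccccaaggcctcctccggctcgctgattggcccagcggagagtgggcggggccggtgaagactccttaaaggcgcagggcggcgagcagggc
They differ at 3 positions, C44T, T47C and T249G, counted from 1 at the 5′ end of the window with the Hspa1a base before the number and the Hspa1b base after it. The transcripts are also alike: 47.1% of all stretches of 100 bases in the Hspa1a transcript occur unchanged in that of Hspa1b, and 49.9% of those in Hspa1b occur in Hspa1a. How reads were divided between the genes is therefore uncertain, and the sum is the safer measure.

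The summed Hspa1a and Hspa1b level was 782, 870, 706, 503 and 1041 normalized counts in females, and males had a lowest value of 355 (replicate 1), a median of 828 and a highest of 989. Hspa1b made up most of it, at 615, 765, 666, 388 and 881 in females and between 325 and 851 in males, with a male median of 730. Hspa1a was at 167, 105, 39.7, 115 and 160 in females, and males had a lowest value of 30.1, a median of 138 and a highest of 206 (replicate 2). Its share of the sum ran between 5.62% and 22.9% in females and between 8.47% and 21.0% in males. The sexes overlapped for both genes and for the sum. Hspa1a also shares 564 exon bases (19.0% of its exons) with Gm20481 on the other strand, which averaged 0.680 normalized counts.

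Between the sexes, none of the 10 genes differed past the threshold, an adjusted p below 0.05 by limma over the 16455 genes tested. All 10 passed the filter on low values (10 normalized counts or more in 5 embryos or more). Fosb passed through the males, since of its 6 embryos at that level only female 5 was a female. Over all genes, 0.0425% were called, 0.0182% as higher and 0.0243% as lower in females. At an unadjusted p below 0.05 by limma there was 1 of the 10, Fosb, lower in females. There 10.8% of all genes tested lay, and 5.64% of all genes lay as lower in females. Because Fosb entered the test through the sex where it is high, this p gives no support for a difference. In the authors' deposited table, 0 of the 10 had an adjusted p below 0.05, with adjusted p-values of 0.464 (Dusp1) and above, and 0 had an unadjusted p below 0.05. Log2 fold changes of female over male were positive for 6 genes and negative for 4, with a median of 0.04, beside 49.8% positive and a median of -0.00 over all genes.

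**Figure D2:**
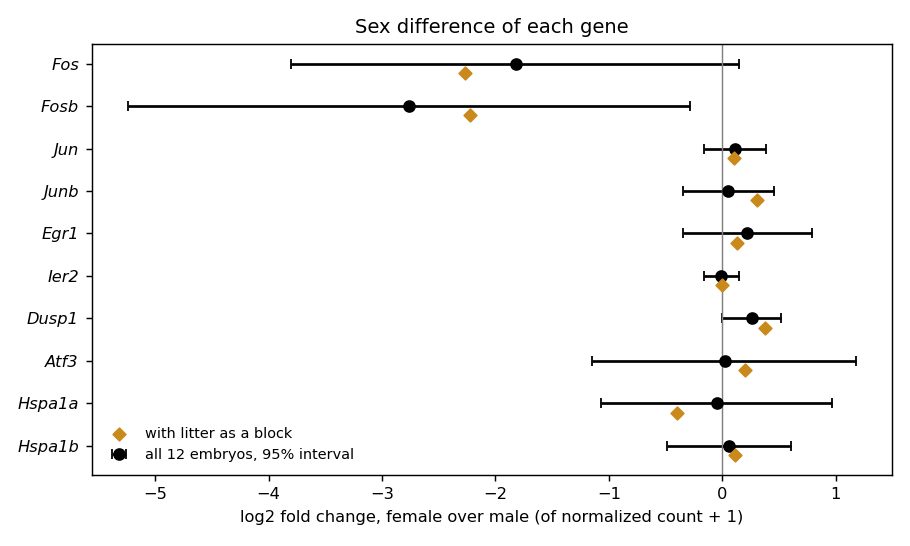
Log2 fold change of normalized count + 1, female over male (horizontal axis), of each gene with its 95% interval from the fit on all 12 embryos; diamonds give the estimate with litter as a block. The intervals are narrow for Ier2 (-0.16 to 0.15) and wide for Fos (-3.80 to 0.15) and Fosb (-5.24 to -0.28).

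For the abundant genes the intervals were narrow. Ier2 averaged 10283 ± 178 in the 5 females and 10377 ± 1192 in the 7 males (SD), a log2 fold change of -0.01 (95% interval -0.16 to 0.15). Jun had 0.11 (-0.16 to 0.39) and Junb 0.05 (-0.35 to 0.46). Dusp1 averaged 3252 ± 240 in the 5 females and 2753 ± 501 in the 7 males (SD), the log2 fold change being 0.26 (SE 0.12, adjusted p = 0.468 by limma) and 0.38 with litter as a block (adjusted p = 0.456 by limma). In each litter with both sexes the female was above the mean of its brothers for Dusp1, by log2 differences of 0.33, 0.15 and 0.76 in litters 3, 6 and 9. In litter 6 the female, at 3120, was nevertheless below male 6, at 3302. Junb likewise had positive differences in these litters, of 0.11, 0.35 and 0.53.

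For the low and variable genes the same test says little. Fos averaged 227 ± 209 in the 5 females and 435 ± 327 in the 7 males (SD), the log2 fold change being -1.82 (SE 0.92, adjusted p = 0.501 by limma). Without female replicate 3 it was -0.75 (adjusted p = 0.752 by limma). Within litters, the female minus male difference was -0.30, -5.91 and -0.04 in litters 3, 6 and 9, where litter 6 holds that female. Fosb averaged 6.75 ± 15.1 in the 5 females and 23.1 ± 27.2 in the 7 males (SD), the log2 fold change being -2.76 (SE 1.2, adjusted p = 0.411 by limma), a value that depends on the pseudocount because 4 females were at 0. Egr1 had 0.22 (95% interval -0.35 to 0.79), Atf3 0.02 (-1.15 to 1.18), Hspa1a -0.05 (-1.07 to 0.97), Hspa1b 0.06 (-0.49 to 0.61) and the sum of the last pair 0.06 (-0.48 to 0.61), so differences of that size in either direction were not detectable in these embryos.

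Other genes of the same responses were also free of calls between the sexes. Of 42 symbols listed as other immediate early genes, 39 were tested; limma called 0 higher and 0 lower in females, with 6 at an unadjusted p below 0.05 (10.8% of all genes tested lay there) and a median log2 fold change of -0.05. Sgk1, a kinase of growth factor and osmotic signalling, averaged 29176 ± 2599 in the 5 females and 20751 ± 6427 in the 7 males (SD; log2 fold change 0.54, adjusted p = 0.295 by limma), Myc averaged 11718 ± 1122 in females and 9094 ± 2497 in males, and Klf6 averaged 6332 ± 1151 in females and 6599 ± 905 in males. Fosl1, an AP-1 gene needed for the mouse placenta and named here after its values were seen, averaged 319 ± 236 in the 5 females and 793 ± 427 in the 7 males (SD; log2 fold change -1.66, adjusted p = 0.308 by limma). Of the 12 ERK feedback genes, 0 were called, 4 had an unadjusted p below 0.05, against 10.8% of all genes, and 9 had positive log2 fold changes (median 0.16), against 49.8% of all genes. Dusp6, an ERK phosphatase, averaged 18141 ± 1708 in the 5 females and 13938 ± 4339 in the 7 males (SD; log2 fold change 0.44, adjusted p = 0.413 by limma). Etv5, an ETS factor, averaged 30767 ± 2734 in females and 26939 ± 3804 in males, and Spry4, an inhibitor of the pathway, 5444 ± 425 in females and 4751 ± 1074 in males.

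Constitutive chaperones were very abundant and varied little. Hspa8, the constitutive Hsc70, averaged 579709 ± 41416 normalized counts in the 5 females and 550751 ± 32604 in the 7 males (SD). Hsp90ab1 averaged 477366 ± 16771 in females and 464173 ± 11335 in males, and its SD was larger than that of 0.122% of the genes tested. Hspa5, the chaperone of the endoplasmic reticulum, averaged 259182 ± 23778 in females and 255144 ± 24213 in males. Of the 27 heat shock and chaperone genes 0 were called and 6 had an unadjusted p below 0.05, against 10.8% of all genes (median log2 fold change 0.02). Their median SD over embryos was 0.13, against 0.318 for all genes and 0.426 for the other immediate early genes. These SDs were not set against genes of the same level. Of 13 genes of the integrated stress and unfolded protein responses 0 were called and 2 had an unadjusted p below 0.05 (median -0.03). Asns, which encodes asparagine synthetase, was at 17318 ± 1921 in the 5 females and 20360 ± 1807 in the 7 males (SD; unadjusted p = 0.00816, adjusted p = 0.309 by limma). Hsp90b1 and Pdia4, chaperones of the endoplasmic reticulum, had log2 fold changes of 0.01 and -0.02. Of 14 upstream factors tested, which include Srf, Elk1 and Hsf1, 0 were called and 1 had an unadjusted p below 0.05 (median 0.04). The kinase gene Map2k2 was at 22775 ± 1141 in the 5 females and 21289 ± 1275 in the 7 males (SD), and Map2k1 was at 16669 ± 1648 in females and 15812 ± 967 in males.

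Across the 12 embryos the 10 genes did not move as a block. Over their 45 pairs the median Pearson r of log2 levels was 0.05, with quartiles of -0.14 and 0.28, and among the 28 pairs of immediate early genes it was 0.01. Over all pairs of genes tested the median was -0.00, with quartiles of -0.23 and 0.23. An r of at least 0.7 was reached by 4 of the 45 pairs, against 0.967% of all pairs of genes; the cut at 0.7 was chosen after the values were seen, and pairs that share a gene are not independent. In permutation tests adjusted over the 45 pairs, 0 passed by Pearson's r and 0 by Spearman's rho, with 6 and 5 at an unadjusted p below 0.05.

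**Figure D3:**
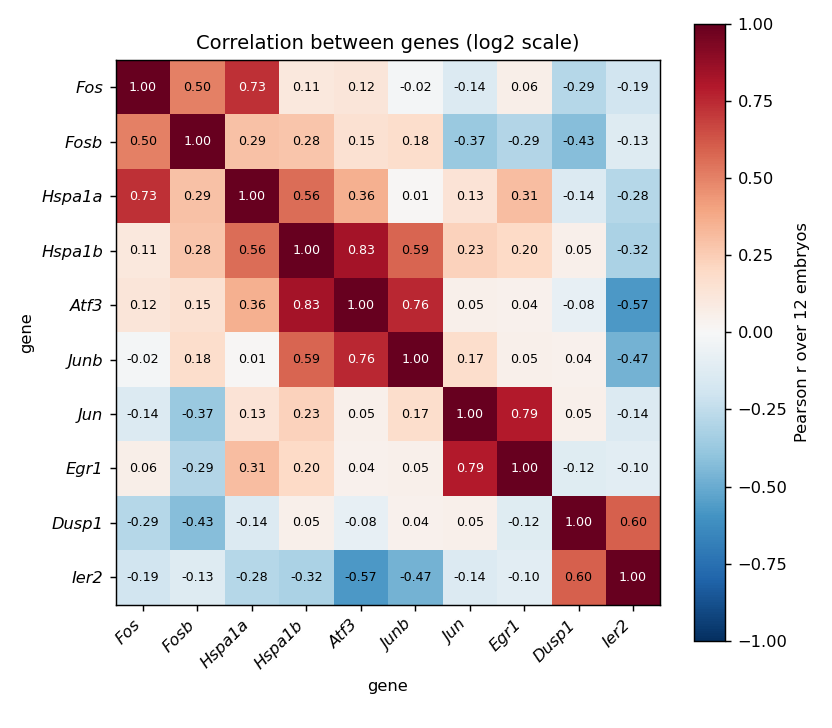
Pearson r over 12 embryos between the log2 levels of each pair of the 10 genes, with the value in each cell. The cells at 0.7 or above are Atf3 with Hspa1b (0.83), Jun with Egr1 (0.79), Junb with Atf3 (0.76) and Fos with Hspa1a (0.73), and most others lie near 0.

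The strongest relation was between Atf3 and Hspa1b, with r = 0.83 and rho = 0.75 (permutation p = 0.0028, adjusted p = 0.063; adjusted p = 0.132 for rho). The embryos lowest for Atf3, female 4 and male 1, were also lowest for Hspa1b. Without both, the 2 farthest from the median of Atf3, r was 0.54 (permutation p = 0.106), so the relation was weaker without them and did not pass. Within the 3 litters of 2 or more embryos, which hold neither of those 2, r was 0.69 over 8 embryos, with no test. Junb and Atf3 had r = 0.76 and rho = 0.73 (permutation p = 0.00497, adjusted p = 0.0745). Their r was 0.52 without female 4 and male 6 (permutation p = 0.0974), weaker and not passing, and 0.93 within litters, with no test. Hspa1b and Junb had r = 0.59 and rho = 0.70 (permutation p = 0.0459, adjusted p = 0.289).

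Jun and Egr1, both inducible through ERK, had r = 0.79 and rho = 0.74 (permutation p = 0.00264, adjusted p = 0.063). Without the 2 embryos farthest from the median of Jun r was 0.75 (permutation p = 0.0134), and within litters it was 0.75. Male 2 and females 3 and 4 were high for both, and males 1, 6 and 7 and female 5 were low for both. Jun spanned 1.55-fold, so these are small differences in level.

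The r of Fos and Hspa1a was 0.73 and rho 0.71 (permutation p = 0.0155, adjusted p = 0.174), 0.80 without the 2 embryos farthest from the median of Fos (permutation p = 0.0101), and 0.92 within litters. Among deviations from the mean of each sex, r was 0.81 with an adjusted p of 0.0063 in permutations within sexes, the only pair to pass there. The r of Fos was -0.14 with Jun, -0.02 with Junb, 0.06 with Egr1, 0.11 with Hspa1b and 0.50 with Fosb. Without females 2 and 3, the same 2 embryos, it was 0.52 with Jun (permutation p = 0.124), 0.32 with Junb (permutation p = 0.374), 0.69 with Egr1 (permutation p = 0.0242), 0.69 with Hspa1b (permutation p = 0.0248) and 0.18 with Fosb (permutation p = 0.628), where the lowest p adjusted over the 45 pairs was 0.24. The low or negative values with Jun, Junb, Egr1 and Hspa1b were thus higher without those 2 females, but passed the adjusted threshold in no case. With no test, the r of Fos with Hspa1a was 0.97 in females and 0.84 in males. With Egr1 it was -0.17 in females and 0.88 in males, with Jun -0.47 in females and 0.76 in males, and with Hspa1b -0.14 in females and 0.76 in males. Hspa1a and Hspa1b had r = 0.56 (permutation p = 0.0503, adjusted p = 0.289), and the summed pair had r = 0.25 with Fos and 0.78 with Atf3 (permutation adjusted p = 0.919 and 0.0596 over 36 pairs). Given how alike the transcripts are, the separate patterns of Hspa1a and Hspa1b are uncertain.

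Ier2 and Dusp1 had r = 0.60 and rho = 0.57 (permutation p = 0.0414, adjusted p = 0.289), and 0.71 within litters. Their r was -0.60 in the 5 females, whose Ier2 levels lay close together, and 0.79 in the 7 males, a difference that was not tested. Ier2 had negative r with Atf3 (-0.57, permutation p = 0.0513, adjusted p = 0.289) and Junb (-0.47, permutation p = 0.124, adjusted p = 0.559). Without the 2 embryos farthest from the median of the first gene, r was -0.42 with Atf3 (without males 4 and 6; permutation p = 0.23) and 0.08 with Junb (without female 4 and male 6; permutation p = 0.83), so the value with Junb rests on those embryos. The embryo highest for Ier2, male 6, was the lowest for Junb and among the lowest for Atf3.

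**Figure D4:**
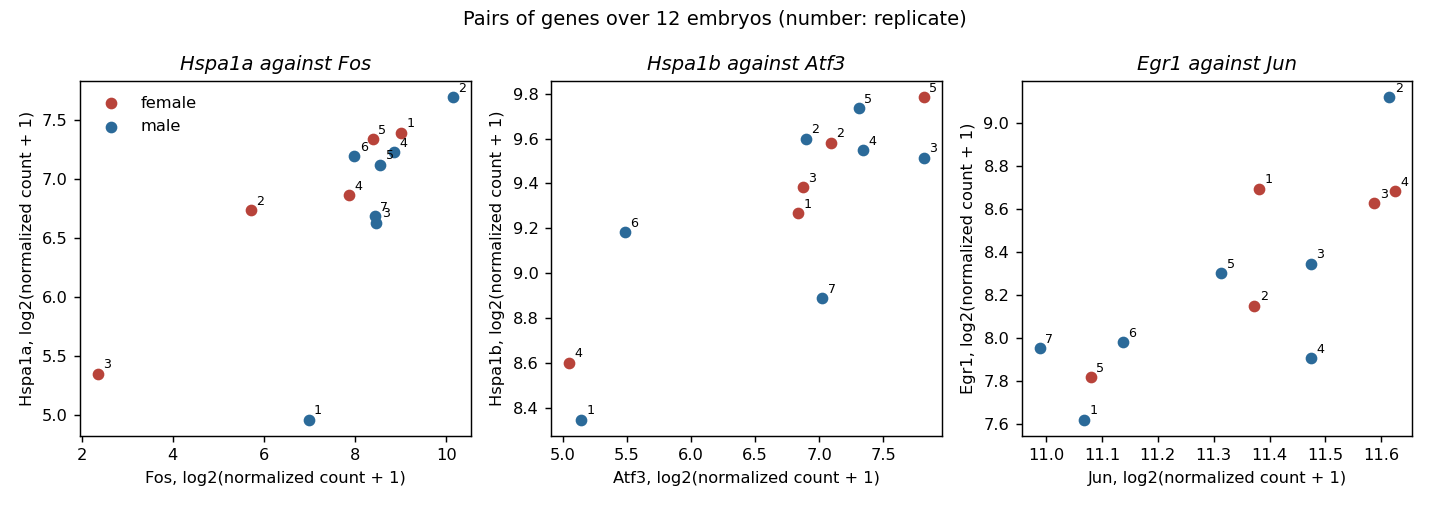
Log2(normalized count + 1) of Hspa1a against Fos, Hspa1b against Atf3 and Egr1 against Jun in 5 female and 7 male embryos, each point labelled with its replicate number. Female 3 and male 1 are the low points for Hspa1a, female 4 and male 1 for Hspa1b, and male 2 is the high point for Egr1.

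Levels of 3 of the genes followed markers of a tissue. Each gene was set against the mean log2 level of 10 marker lists, relative to the 12 embryos, which gave 100 relations, and 3 passed in permutation tests adjusted over the 100. A list mean took only the markers that passed the filter on low values. These were 4 of 6 for trophoblast giant cells (Prl3d1, Prl2c2, Prl7a1 and Mmp9), 4 of 5 for endothelium and 5 of 8 for leukocytes. Fos followed the markers of trophoblast giant cells, the invasive cells at the border with the uterus (r = 0.86, rho = 0.90, permutation p = 4e-05, adjusted p = 0.004; adjusted p = 0.024 for rho). Of all genes tested, 0.486% had an r at least as high with that list, its own members included. The list mean was lowest in females 2 and 3, at -2.79 and -2.56, where Fos was also lowest, and highest in male 2, at 2.45, where Fos was highest. Without females 2 and 3, r was 0.85 (permutation p = 0.00108), within litters it was 0.87, and among deviations from sex means 0.82 (adjusted p = 0.026 by permutation). Without male 2 the adjusted p was 0.051 by permutation. The part of this tissue in the Fos level, and in its difference between sexes, was not tested.

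Ier2 followed the epiblast markers, with r = 0.85 and rho = 0.81 (permutation p = 0.00028, adjusted p = 0.014; adjusted p = 0.114 for rho). Of all genes tested, 0.134% had an r at least as high, the list's own members included. The list mean ran between -0.02 and 0.21 in females and between -0.40 and 0.32 in males. Without males 6 and 7, at the ends of the list mean, r was 0.75 (permutation p = 0.0101), within litters 0.81, and among deviations from sex means 0.92 (adjusted p = 0.026 by permutation). Leaving out male 1, 2, 4 or 7 took the adjusted p to between 0.051 and 0.082 by permutation.

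Dusp1 followed the streak and nascent mesoderm markers, with r = 0.88 (permutation p = 0.00068, adjusted p = 0.0227), but with rho = 0.49 (permutation adjusted p = 0.422). Of all genes tested, 0.292% had an r at least as high. Males 7, 2 and 5 were lowest in both, at list means of -0.65, -0.48 and -0.33, and the remaining embryos lay together at the upper end, and the rank correlation did not pass. Without males 2 and 7 r was 0.66 (permutation p = 0.0446), among deviations from sex means it was 0.83 (adjusted p = 0.196 by permutation), and within litters 0.96. Leaving out male 2, 4, 5 or 7 took the adjusted p to between 0.082 and 0.176 by permutation. Dusp1 also had r = 0.78 with the epiblast list (permutation p = 0.00303, adjusted p = 0.0757).

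**Figure D5:**
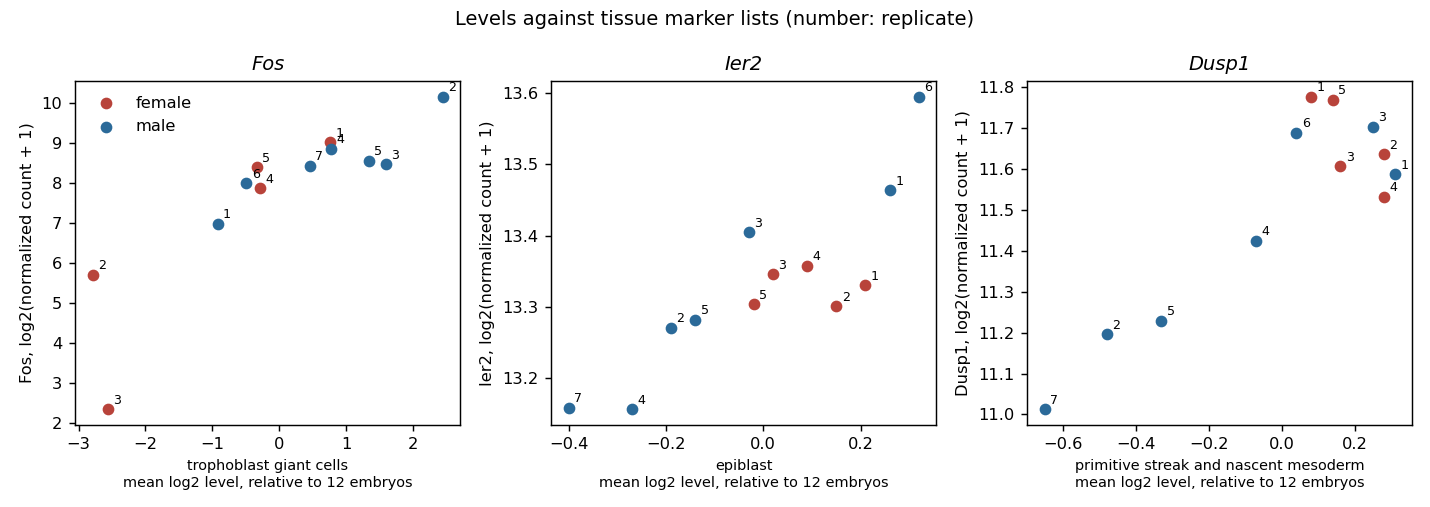
Log2(normalized count + 1) of Fos, Ier2 and Dusp1 (vertical axes) against the mean log2 level, relative to the 12 embryos, of the markers of trophoblast giant cells, epiblast, and primitive streak with nascent mesoderm. Points are 5 female and 7 male embryos with replicate numbers; r is 0.86, 0.85 and 0.88.

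None of the other 97 relations passed. Fos had r = 0.74 with the maternal decidual list (permutation p = 0.00444, adjusted p = 0.0888), 0.69 with adult blood (permutation p = 0.0191, adjusted p = 0.273) and 0.70 with endothelium (permutation p = 0.0179, adjusted p = 0.273). The endothelial relation was 0.22 without females 2 and 3 (permutation p = 0.564), so it rests on those embryos. Fos and the visceral endoderm list had r = -0.60 (permutation p = 0.0331, adjusted p = 0.319). Hspa1a had r = 0.63 and rho = 0.78 with parietal endoderm (permutation p = 0.0254, adjusted p = 0.317). All lists were read in the same 12 libraries, so these relations are not independent of each other.

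The genes most like Fos over the 12 embryos, among 12528 other genes with a mean of at least 100 normalized counts, were Dnase1l3 (r = 0.98), Cdh5 (0.97), Dll4 (0.96), Scin (0.95) and Serpinb9e (0.94). Dnase1l3, a secreted nuclease, was at 273, 32.2, 2.05, 77.1 and 156 in females, and males had a lowest value of 45.2, a median of 277 and a highest of 506 (replicate 2). Cdh5, the cadherin of endothelial junctions, was at 477, 20.9, 1.04, 153 and 229 in females and between 122 and 651 in males. It is itself a member of the endothelial list, whose r with Fos as a whole was 0.22 without females 2 and 3. Dll4, a Notch ligand, was at 0 in female 3 and at 538 in male 2. Without females 2 and 3, the embryos farthest from the median of Fos, r was 0.92 for Dnase1l3, 0.76 for Cdh5, 0.85 for Dll4, 0.71 for Scin and 0.55 for Serpinb9e, and with deviations within litters it was between 0.94 and 0.99. These genes were picked as the highest of many, so their r is a description with no test.

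Egr1 and Hspa1a were most like other genes. For Egr1 they included Sh3yl1 (r = 0.87), Tonsl (0.83), Decr2 (0.80) and Zfp185 (0.78). Tonsl, a DNA replication repair factor, was at 4920, 3712, 4728, 3772 and 2970 in females and between 2657 and 5100 in males. For Hspa1a they were Ttc9 (r = 0.92), Lamb3 (0.90), Adcy7 (0.89), Btg1 (0.89) and Cfap57 (0.87). Lamb3, a laminin chain of epithelial basement membranes, was at 304, 117, 38.9, 376 and 267 in females and between 43.4 and 317 in males, and Btg1, an antiproliferative gene on the list of other immediate early genes, at 2307, 2092, 1572, 2119 and 2979 in females and between 1361 and 2879 in males. Without the 2 embryos farthest from the median of Hspa1a, r was between 0.39 and 0.70 for these 5, so their likeness rests largely on female 3 and male 1.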

How the data were processed

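Per the labels' protocols, libraries of the 12 embryos were made with low-input and Nextera XT kits and sequenced paired-end. The authors used DESeq2 1.34.0, Salmon 1.5.2, STAR 2.7.7a, cutadapt 4.1 and mm10, per the submitters' processing notes; their settings are not given in the sources used here. The authors deposited variance-stabilized log2 values per embryo (floor 10.4141), a mean signal per gene, and log2 fold changes with p-values and adjusted p-values. The floor compresses deposited log2 differences below about 1364 normalized counts, so the transformation was inverted in closed form. The inverted mean equalled the deposited mean within a relative 1e-06 for 98.95% of genes with a mean above 0, among them all 10 described here. Whole reads were not recovered: 78.04% to 82.01% of a library's low values came within 0.1 of whole multiples of its commonest low value. Count models were not applied.

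Sex was tested on log2(normalized count + 1) in limma 3.58.1 (R 4.3.3), with trended variance and sex as the only term, over 16455 genes (10 or more in 5 embryos or more), two-sided, with Benjamini-Hochberg adjustment and a threshold of 0.05. Fold changes on this scale understate those of low genes. The fit was tested on simulated data. Correlations used 100000 permutations. The floor of 3 fragments and all intervals cover counting error or the spread between these embryos only; embryos of a litter are not fully independent, and the labels give no finer batch. The genes and lists were chosen with earlier results of these data known. Genes named beyond the 10 are the 3 of highest mean on each companion list, since none passed, and the 5 most like Fos, Egr1 and Hspa1a; Fosl1 was added after its values were seen, and some genes that this rule names are not reported here. Exon lengths and coordinates are GENCODE M21 on GRCm38 (mm10), counted from 1. On the lists, 4 older symbols did not match the table (Cyr61 and Ctgf, whose current names Ccn1 and Ccn2 are also listed, and Mkl1 and Mkl2). Srf is on 2 of the lists.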

Additional observations from a re-analysis of the deposited data

Results flagged for a closer look

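Among 20 groups of 5 or 7 embryos (10 genes in each sex), 3 held an embryo whose gap to the next one exceeded Dixon's 95% critical value of 0.71 for females or 0.568 for males. Gaps were taken on normalized counts, and the criterion was not run on the log2 scale. For normally distributed values chance flags about 1 in 20 groups, a rate that need not hold for skewed counts. The flags are therefore a description only. Fosb was at 33.8 normalized counts in female replicate 5, where the other 4 females were at 0; with 4 tied values any value above 0 in the remaining female meets the criterion, so this case carries no weight against chance. Fos was at 1136 in male replicate 2, and Egr1 at 556 in the same embryo, in each case above all other embryos. That male also had the highest level of trophoblast giant cell markers, a list mean of 2.45; the part of that tissue in its values was not tested.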

How the results depend on the processing

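Under the 22 alternatives run for the comparison of the sexes, 0 of the genes passed the adjusted threshold, and the lowest adjusted p was 0.287 by limma (Fosb without male replicate 3). The count at an unadjusted p below 0.05, 1 in the reported fit, was 0 with a pseudocount of 10, with a filter at 100 (which removes Fosb), on the deposited log2 values and with litter as a block, and 0 to 3 when an embryo was left out (3 without male 1, 2 without female 5 or males 3 or 6, and 0 without females 2 or 3 or males 2, 4 or 5). The replicate block, which uses the replicate number, gave 0 calls among the genes and reversed Junb (-0.12), Ier2 (0.01), Atf3 (-0.17), Hspa1a (0.01) and Hspa1b (-0.03). Numbers did not pair embryos: same-numbered embryos had different litters, their deviations correlated between -0.068 and 0.0092, and 0 of 5 females correlated best with their own number. Ier2 was also reversed with litter as a block (0.00) and Hspa1a with quantile normalization (0.02). Leaving out embryos gave log2 fold changes of -0.06 to 0.17 for Junb, -0.03 to 0.04 for Ier2, -0.25 to 0.44 for Atf3, -0.36 to 0.29 for Hspa1a and -0.09 to 0.24 for Hspa1b, so these genes have no stable direction. Fos (-2.41 to -0.75), Fosb (-3.78 to -2.33), Jun, Egr1 and Dusp1 kept theirs under these alternatives. Within litters 3, 6 and 9, however, differences had mixed signs for Fosb (-3.00, -4.98 and 2.48), Jun (-0.16, 0.36 and 0.09) and Egr1 (-0.04, 0.49 and -0.14). Those of Fos, Dusp1 and Junb kept the same sign there. Pairs called as correlated, 0 as reported, were 4 on the deposited log2 values (Fos with Hspa1a, Jun with Egr1, Junb with Atf3 and Atf3 with Hspa1b, adjusted p of 0.0399 to 0.0468), 1 among deviations from sex means, and 0 to 1 without an embryo (Jun with Egr1 without male 4, Atf3 with Hspa1b without male 7); the cause was not tested. Deviations from litter means gave r but no count of calls, since no test was run on them. Relations with marker lists, 3 as reported, were 1 by Spearman, and 0 to 4 without an embryo (0 without male 2, 1 without males 4 or 7). The alternatives for the marker lists, the summed pair and the trimmed correlations were chosen after seeing the data. Fosb lay at or under the limit of 3 fragments in 5 of 12 embryos.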
